A study of Mus musculus with 2 samples.

Results

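The EGR factors Egr1, Egr2, Egr3 and Egr4 and their corepressors Nab1 and Nab2 are 6 genes of the 55487 rows in the count table, chosen by gene symbol. Their RNA was measured in MC3T3-E1 cells, a mouse calvarial line that behaves as immature osteoblasts. The PTH library came from cells given 10 nM parathyroid hormone, and the untreated library from cells without it; both carry a time of 1 h. All cells grew with 10% fetal bovine serum and had been seeded 24 h before treatment at 25000 cells per cm2. Each condition is 1 library, so no difference below has a replicate check, no p-value was computed, and every statement compares these 2 libraries rather than the conditions.

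EGR proteins are zinc finger transcription factors of the immediate-early class: their genes are switched on within minutes by growth factors, serum and hormones, without new protein synthesis, and switched off again soon after. Induction runs largely through the ERK kinases, which phosphorylate ternary complex factors bound beside SRF at CArG boxes in the promoters, and CREB bound at cyclic AMP response elements (CRE) can add to it. The proteins bind a shared GC-rich element. NAB proteins have no DNA-binding domain of their own; they dock on a domain that EGR1, EGR2 and EGR3 share and EGR4 lacks, and recruit the CHD4 remodelling complex. Nab2 is itself switched on by EGR factors and so closes a feedback loop, while Nab1 is expressed more steadily. PTH acts on osteoblasts through Pth1r, a receptor that raises cyclic AMP.

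Promoter windows show which of these elements stand beside the genes described here. RefSeq windows (GRCm38.p6, 250 bases before to 50 after a start site) existed for 4 of the 6 members: Egr2, Egr4, Nab1 and Nab2. They were searched on both strands for CArG boxes, the full CRE TGACGTCA, its shorter part TGACG (called the CRE part here, and printed as CGTCA where it lies on the opposite strand), the EGR element GCGNGGGCG and the ETS core CCGGAA. In the lines below the capitals mark matches on either strand, and the genes shown are those whose window at the given start held a match. Egr2 and Egr4 are the members with the largest fold decreases in the PTH library, and Nab1 is the member whose window held EGR elements.
Egr2 (chr10:67537619-67537918, plus strand): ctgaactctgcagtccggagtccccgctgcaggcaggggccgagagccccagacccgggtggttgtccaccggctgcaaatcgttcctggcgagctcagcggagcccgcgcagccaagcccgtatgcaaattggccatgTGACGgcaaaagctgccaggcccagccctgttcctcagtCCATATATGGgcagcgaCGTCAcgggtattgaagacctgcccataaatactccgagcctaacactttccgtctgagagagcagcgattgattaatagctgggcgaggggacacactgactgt
Egr4 (chr6:85513540-85513839, minus strand): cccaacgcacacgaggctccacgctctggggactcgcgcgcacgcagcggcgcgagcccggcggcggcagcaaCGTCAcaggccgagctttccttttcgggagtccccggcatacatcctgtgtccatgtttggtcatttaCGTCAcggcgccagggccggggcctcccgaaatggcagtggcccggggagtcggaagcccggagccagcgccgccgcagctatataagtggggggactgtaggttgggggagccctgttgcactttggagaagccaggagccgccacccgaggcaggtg
Nab1 (chr1:52500399-52500698, minus strand): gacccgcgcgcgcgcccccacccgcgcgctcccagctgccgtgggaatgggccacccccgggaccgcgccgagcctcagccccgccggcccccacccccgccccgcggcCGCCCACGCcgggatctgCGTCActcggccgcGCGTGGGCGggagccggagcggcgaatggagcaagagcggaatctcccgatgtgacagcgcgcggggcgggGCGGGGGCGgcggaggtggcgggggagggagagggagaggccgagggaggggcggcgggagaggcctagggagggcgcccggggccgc

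The Egr2 window held 1 CArG box, CCATATATGG, from -72 to -63 relative to its start site, and 2 CRE parts, at -111 and -55 (positions of their leftmost base). The Egr4 window held 2 CRE parts, at -177 and -109, and no CArG box by the letters searched. Nab1 held 3 EGR elements, at -141, -109 and -38, and 1 CRE part at -123. The Nab1 start site used here lies 148 bases from the nearest GENCODE coding start. Among all 32851 windows, 1.63% held a CArG box, 20.8% a CRE part, 1.79% a full CRE, 5.55% an EGR element and 14.9% an ETS core. The Nab2 window (chr10:127666654-127666953, minus strand) held none of these. No window of a member held a full CRE. Egr2 had 5 windows, of which 1 is printed, while the percentages above are per window. Its windows at start sites 67537870 and 67537930 overlap the printed one and held the same CArG box and CRE parts. The window at 67535499, 24 bases from the nearest GENCODE coding start, held no match. The one at start site 67537566, which no GENCODE coding transcript uses, held another CArG box and 3 ETS core matches. Those at -131 and -129 overlap on opposite strands, and the other lies at -48. These matches describe letters in the windows and are not binding sites shown by these data.

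All 4 EGR genes had fewer reads in the PTH library, and neither NAB gene passed the same limit. Counts were scaled by effective library size, and a gene was called higher or lower when the whole 95% counting interval of its ratio, PTH over untreated, lay beyond 1.5-fold. By this rule 4 of 4 EGR genes fell, against a background of 3.54% of the 16408 compared rows called lower. For the NAB genes 0 of 2 were called higher, against a background of 5.39%. The members were chosen with earlier results of these data known, so setting them against these shares is no independent check. Egr4 fell 4.16-fold, Egr2 3.0-fold, Egr3 2.81-fold and Egr1 2.07-fold, while Nab2 stood at a ratio of 1.44 and Nab1 at 1.15. Over the EGR genes the median log2 ratio was -1.54, and over all compared rows it was 0.00. These intervals hold counting error alone and treat each count as an independent read, which reads copied by PCR are not. The counting tool is not known, so how far the counts stand for single reads is not known either. In RNA from a whole culture, fewer cells of a type and less RNA per cell cannot be told apart.

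**Figure D1:**
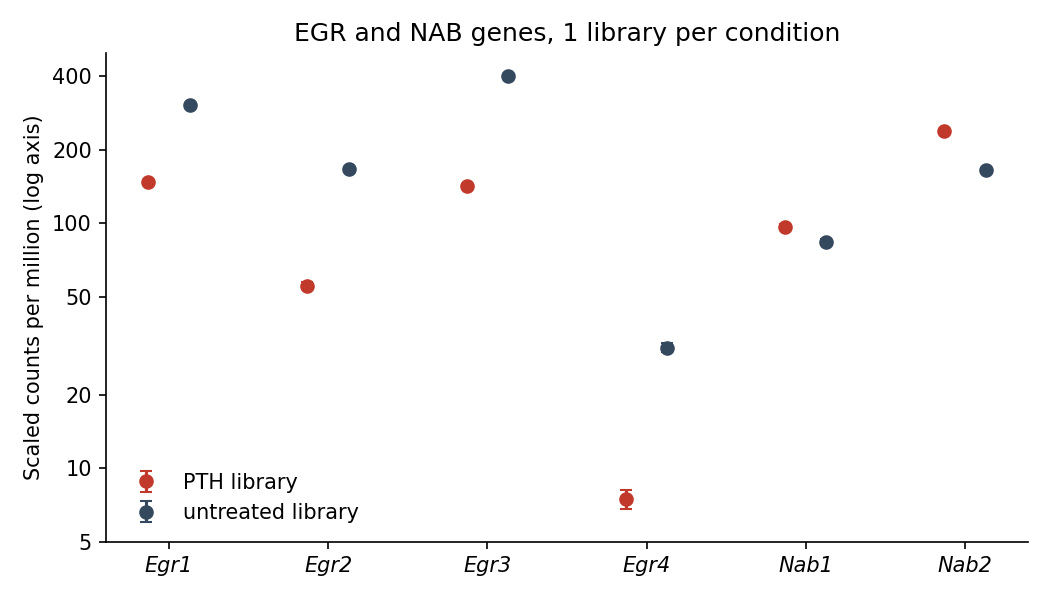
Scaled CPM (counts scaled by library size, log axis) of each EGR and NAB gene in the PTH library (red, left of each pair) and the untreated library (dark, right), with exact 95% Poisson intervals of the count, most of them smaller than the symbol. The 4 EGR genes are lower in the PTH library, and Egr4 is the least abundant member in each library.

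Egr1, the family's best studied member and a regulator of growth factor and matrix genes, lies at chr18:34859823-34864984 on the plus strand (GENCODE M21, GRCm38). It had 10178 counts in the PTH library, against 20495 in the untreated library, or 147 CPM (counts scaled by effective library size) against 305 CPM. The ratio was 0.482 (95% interval 0.471 to 0.494), the mildest decrease of the 4 EGR genes. Among the 9549 rows with at least 1000 counts over both libraries it ranked 57th from the lowest ratio. Over all 16408 compared rows, those with few reads included, it ranked 728th.

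Egr2, known as Krox20 and required for hindbrain segmentation and for myelination by Schwann cells, lies at chr10:67535475-67542188 on the plus strand. It had 3846 counts in the PTH library, against 11205 in the untreated library, which is 55.6 CPM against 167 CPM. The fold decrease was 3.0 (2.89 to 3.11). This gene carries the CArG box and the CRE parts printed above.

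Egr3, required in mice for the development of muscle spindles, lies at chr14:70077203-70082614 on the plus strand and was the EGR gene with most reads in the untreated library. It had 9862 counts in the PTH library, against 26877 in the untreated library, which is 143 CPM against 400.1 CPM. The fold decrease was 2.81 (2.74 to 2.87).

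Egr4, needed for male fertility in mice and the family member without the NAB docking domain, lies at chr6:85511121-85513589 on the minus strand. It had 517 counts in the PTH library, against 2089 in the untreated library, which is 7.47 CPM against 31.1 CPM. The fold decrease of 4.16 (3.78 to 4.59) was the widest of the family, from the lowest counts. It ranked 15th from the lowest ratio among the rows with at least 1000 counts, while Egr2 ranked 26th and Egr3 32nd. Over all compared rows Egr4 ranked 214th, Egr2 370th and Egr3 422nd.

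Nab1 lies at chr1:52457294-52500679 on the minus strand. It had 6697 counts in the PTH library, against 5645 in the untreated library, and its ratio of 1.15 (1.11 to 1.19) was not past the rule. Nab2 lies at chr10:127660918-127668568 on the minus strand and had 16445 counts in the PTH library, against 11066 in the untreated library. Its ratio was 1.44 (1.41 to 1.48), above 1 by more than counting error and short of the 1.5-fold limit. The value carries an uncertainty of assignment: 42.2% of the exonic length of Nab2 overlaps exons of Stat6, Nemp1 or Gm16229 on the opposite strand, and no source used here says if strand entered the counting. Stat6, a cytokine-activated transcription factor gene, had 6432 and 6047 counts in the PTH and untreated libraries, a ratio of 1.03 (0.997 to 1.07), and Nemp1, a nuclear envelope protein gene, had 1798 and 1625 counts, a ratio of 1.07 (1.00 to 1.15). The other 5 members share no exonic bases with another annotated gene.

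**Figure D2:**
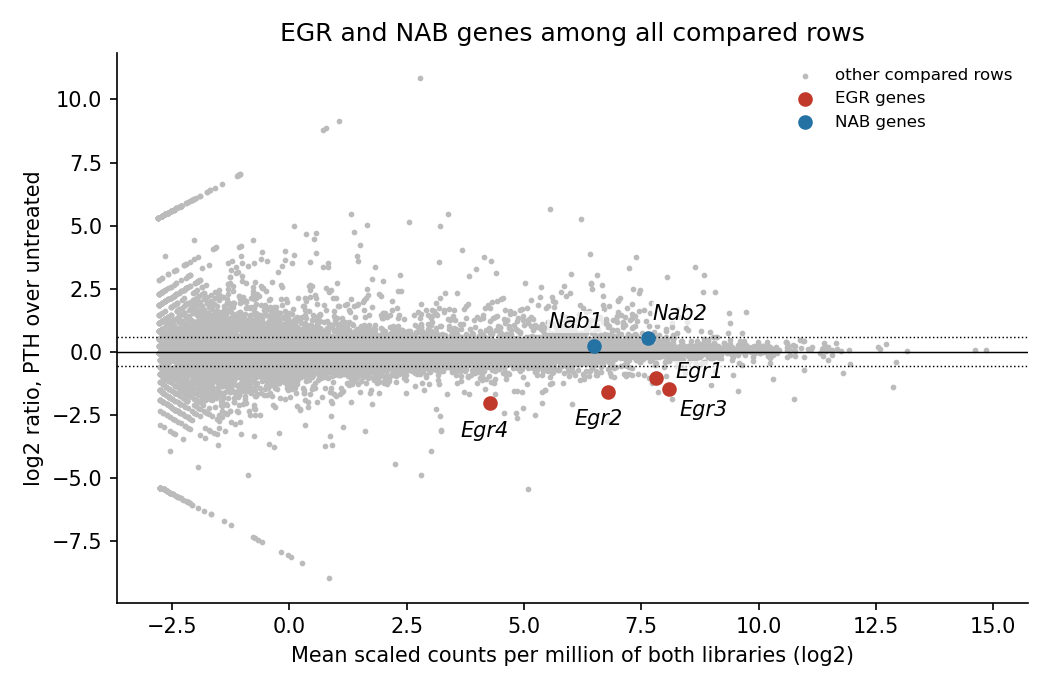
Log2 ratio, PTH over untreated, against the mean scaled CPM of both libraries (log2), 1 point per compared row, with EGR genes in red and NAB genes in blue; dotted lines mark 1.5-fold. The EGR genes lie below the lower line, at log2 ratios between -2.06 and -1.05, and the NAB genes lie between the lines, at 0.20 and 0.53.

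Among rows with at least 1000 counts, 95% of log2 ratios lay between -0.56 and 0.85, and 1.57% of these 9549 rows were called lower. All 4 EGR genes lay below that range and both NAB genes inside it.

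The decrease was not equal across the family. A comparison of 2 genes within each library does not depend on scaling, and it was made for all 15 pairs of members. Egr1 had 1.03 reads for each read of Egr3 in the PTH library, against 0.763 in the untreated library, a change of 1.35-fold (1.31 to 1.40). Relative to Egr4, Egr1 stood at 19.7 in the PTH library, against 9.81 in the untreated library, a change of 2.01-fold (1.82 to 2.22). Egr2 and Egr3 moved most alike: Egr2 had 0.390 reads per Egr3 read in the PTH library and 0.417 in the untreated library, a change of 0.935 (0.896 to 0.977). The counting interval excluded 1 in 15 of 15 pairs. Variation between cultures is not part of these intervals and could not be measured.

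Levels between genes are given as scaled CPM per kb of exon. In the PTH library Egr1 stood at 32.8 and Egr3 at 32.4, followed by Egr2 at 16.4 and Egr4 at 3.48. In the untreated library Egr3 led at 90.8, followed by Egr1 at 68.0, Egr2 at 49.1 and Egr4 at 14.5. In the PTH library the counting intervals of Egr1 (32.2 to 33.5) and Egr3 (31.7 to 33.0) overlapped, so their order was not resolved, and with the longest transcript as length Egr3 stood at 36.2, above Egr1. In the untreated library Egr3 was above Egr1 with either length. In read counts, Egr1 made up 41.7% (41.1 to 42.3, exact binomial) of EGR reads in the PTH library and 33.8% (33.4 to 34.2) in the untreated library, while Egr3 made up 40.4% (39.8 to 41.0) and 44.3% (43.9 to 44.7), in the same order of libraries. Egr4 held 2.12% (1.94 to 2.31) of EGR reads in the PTH library and 3.44% (3.30 to 3.59) in the untreated library.

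Both corepressor genes stood above Egr4 in each library. Nab2 was at 80.8 CPM per kb in the PTH library and 56.0 in the untreated library, and Nab1 at 23.6 and 20.5. Nab2 was the most abundant of the 6 genes per length in the PTH library, while Egr3 and Egr1 stood above it in the untreated library. Summed over the family, EGR genes had 24403 counts in the PTH library and 60666 in the untreated library, a decrease of 2.56-fold (2.52 to 2.60). NAB genes together had 23142 counts in the PTH library and 16711 in the untreated library, a ratio of 1.34 (1.32 to 1.37). Per exonic length, EGR RNA stood at 0.814 of NAB RNA in the PTH library, against 2.91 in the untreated library. RNA levels do not give the amounts of the proteins.

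**Figure D3:**
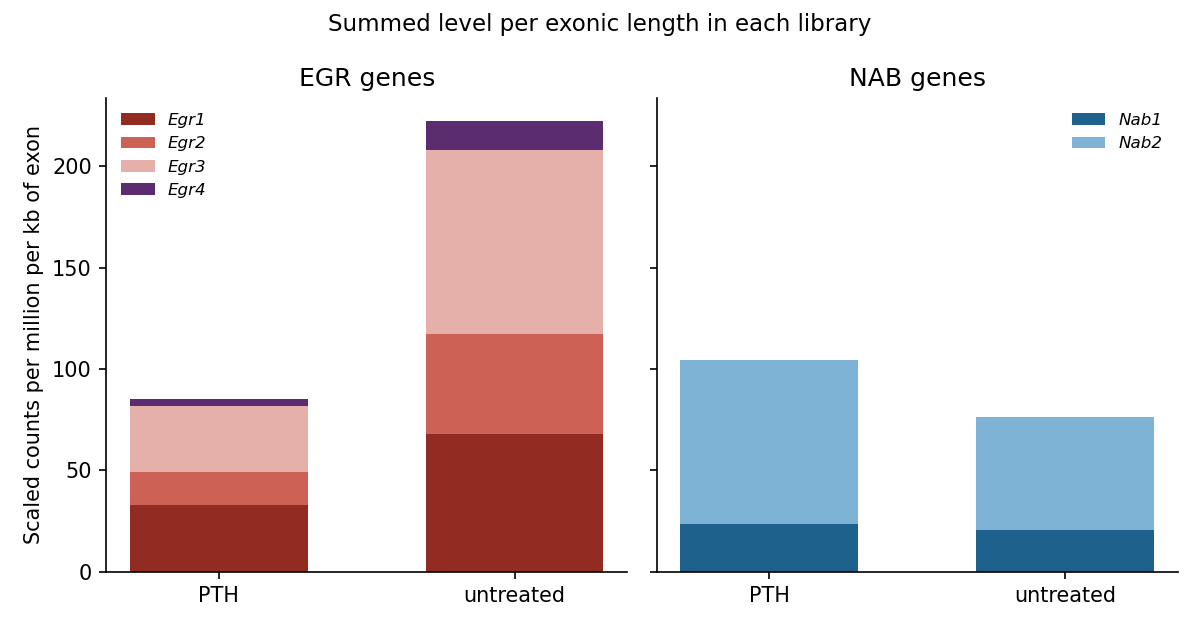
Scaled CPM per kb of exon, stacked by gene, for EGR genes (left panel) and NAB genes (right panel) in the PTH and untreated libraries. The EGR stack reaches 85.0 in the PTH library and 222 in the untreated library, and the NAB stack 104 and 76.5.

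Each EGR gene was also set beside the protein-coding rows of like abundance, within 2-fold, whose log2 ratio was nearest. The likeness rests on 1 ratio from 2 libraries and is a description. Egr1 was matched by Klf6 and Klf7, Kruppel-like zinc finger factor genes, at 2.07-fold and 1.98-fold lower in the PTH library. For Egr3 the nearest were Cited2, a transcriptional co-regulator gene, 3.05-fold lower, and Ankrd1, an ankyrin repeat gene responsive to SRF and YAP, 2.49-fold lower. For Egr2 they were Prkab2, a regulatory subunit of AMP-activated kinase, and Srf, at 2.37-fold and 2.36-fold lower. Egr4 was nearest to Arc and Npas4, activity-regulated genes best known from neurons, at 4.77-fold and 3.25-fold lower. Few genes of like abundance had a lower ratio than the EGR gene itself: 4 of 1432 for Egr1, 2 of 3022 for Egr2, 1 of 1169 for Egr3 and 6 of 3731 for Egr4. Egr3 is among the 4 counted for Egr1.

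Genes lying within 100 kb of the EGR loci were read against the 3.54% of all compared rows called lower. Of the neighbours with enough reads to compare, 0 of 4 at Egr1, 0 of 4 at Egr2, 1 of 5 at Egr3 and 0 of 5 at Egr4 were called lower. None of them was called higher, against 5.39% of all compared rows. Some had few reads, so a call was hard to reach. In the PTH and untreated libraries, Gm10797 had 16 and 8 counts and Gm32364 13 and 11 near Egr2, and Fbxo41 18 and 14 near Egr4. Near Egr2, 4930563J15Rik had 20 and 36 counts, a ratio of 0.539 (0.296 to 0.957). The gene called lower was 9930012K11Rik, 71.8 kb from Egr3, at a ratio of 0.326 (0.256 to 0.412) from 97 counts in the PTH library and 289 in the untreated library. Ado, a thiol dioxygenase gene 2.32 kb from Egr2, had a ratio of 0.704 (0.674 to 0.736).

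Of the 6 listed SRF-linked factors that act on EGR promoters, 1, Srf, was called lower, against 3.54% of all compared rows. CREB genes were not on this list. Srf had 8731 counts in the PTH library, against 19982 in the untreated library, a decrease of 2.36-fold (2.30 to 2.42). It is both the DNA-binding partner of the ternary complex factors and an immediate-early gene. The other 5 of 6 genes on this list, the ternary complex factor genes Elk1, Elk3 and Elk4 and the coactivator genes Mrtfa and Mrtfb, were neither, with ratios between 0.932 and 1.09, and the list's median log2 ratio was 0.04. Among 15 ERK cascade genes 0 were called in either direction, against 8.93% of all compared rows, and their median was -0.01. Each had at least 1000 counts over both libraries, and among such rows 1.57% were called lower, against 3.54% of all compared rows. RNA levels do not give the activity of the proteins these genes encode, which was not measured.

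Other immediate-early genes linked to SRF were split: of 15 compared, 6 were called higher and 3 lower, against 5.39% and 3.54% of all compared rows. The remaining 6 were called in neither direction, and the median log2 ratio was 0.55. Fos, an AP-1 subunit gene that shares its inducers with Egr1, had 12081 counts in the PTH library, against 1902 in the untreated library, a ratio of 6.17 (5.88 to 6.48). Ier3, a survival gene, had a ratio of 3.09 (2.99 to 3.18). Arc moved with the EGR genes, at 760 counts in the PTH library and 3520 in the untreated library, 4.77-fold lower (4.41 to 5.17). Ccn1, a secreted matrix-associated protein gene and the member with most reads, was 1.67-fold lower (1.65 to 1.68).

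Of 30 genes reported elsewhere as EGR targets, Nab2 among them, 27 had enough reads to compare; 6 were called higher and 5 lower, against 5.39% and 3.54% of all compared rows. The remaining 16 were called in neither direction, and the median log2 ratio was 0.05. Vegfa, an angiogenic factor gene, had 62585 counts in the PTH library and 11753 in the untreated library, a ratio of 5.17 (5.07 to 5.27), and Plau, the urokinase gene, a ratio of 3.14 (3.05 to 3.23). Atf3, a stress-responsive bZIP factor gene, had 207 and 977 counts in the PTH and untreated libraries, 4.86-fold lower (4.18 to 5.67). Col1a1, the member with most reads, stood at a ratio of 1.05 (1.05 to 1.05).

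None was called of the compared genes for partners of the EGR and NAB proteins or for factors that bind a similar GC-rich element. Of all compared rows 8.93% were called in either direction. The compared genes of these lists had at least 1000 counts each, and among such rows 1.57% were called lower. Of 13 genes of the CHD4 complex 0 were called, with a median log2 ratio of -0.06, and Chd4 itself stood at 0.958 (0.942 to 0.974). Of 5 factors that bind a similar GC-rich element, 4 had enough reads and 0 were called. Sp1, a general activator of GC-rich promoters, was at 0.652 (0.633 to 0.673), a ratio beyond 1.5-fold whose interval crossed the limit, with 6841 counts in the PTH library and 10184 in the untreated library. The coactivator genes Ep300 and Crebbp were at 1.00 (0.961 to 1.04) and 1.13 (1.08 to 1.19).

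**Figure D4:**
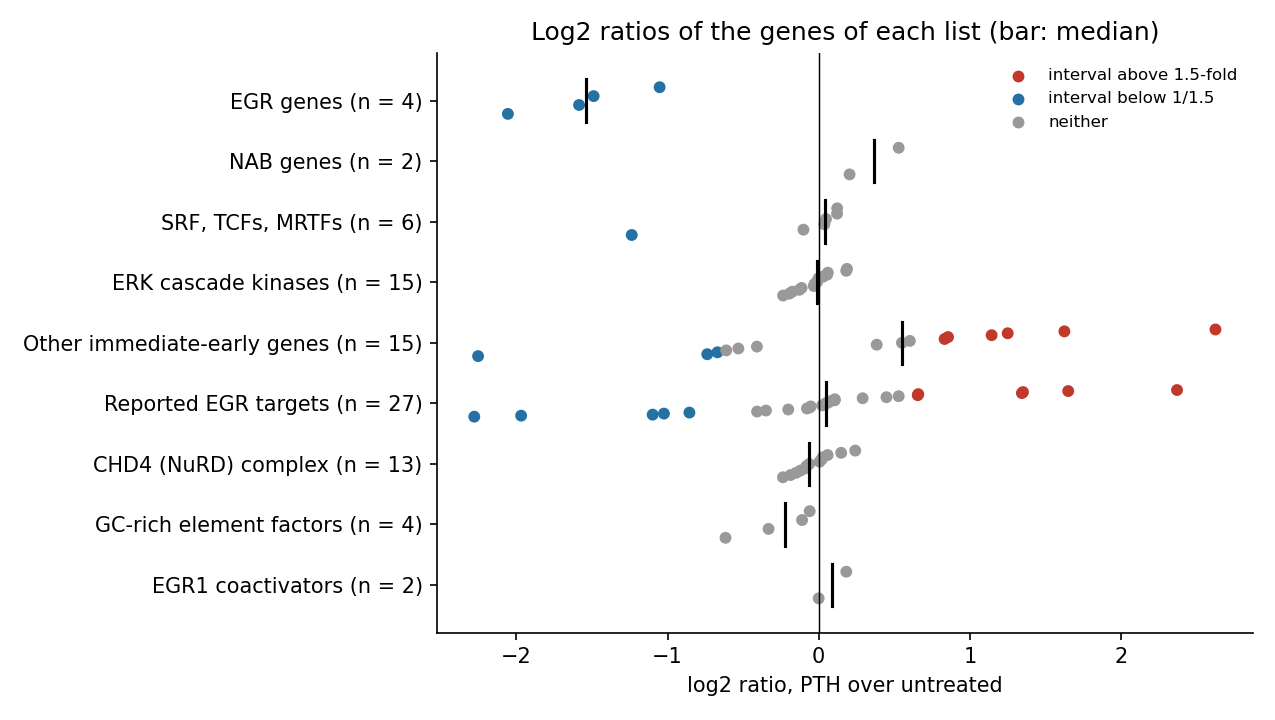
Log2 ratio, PTH over untreated, of every compared gene of each list, 1 point per gene, red where the interval lies above 1.5-fold, blue where it lies below the limit and grey for neither; black bars are medians. The 4 EGR genes are blue, the list of other immediate-early genes holds 6 red and 3 blue points, and the ERK and CHD4 lists hold grey points.

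The PTH library held 70036872 counts and the untreated library 66302211. All 10 osteoblast lineage markers had a total count of at least 20. Bglap had the fewest, 87 counts in the PTH library and 57 in the untreated library. Of the 10 markers 1, Sp7, was called lower, against 3.54% of all compared rows. Some markers of other cell types were at 0 in both libraries: Rbfox3 and Snap25 for neurons, Sox10 for Schwann cells, Ptprc for blood cells, Cdh5 for endothelium, Myod1 for muscle and Adipoq for adipocytes. Others on the same lists were read in osteoblastic cells here: in the PTH and untreated libraries, Pmp22 had 8522 and 6887 counts and Prx 1351 and 1557 (Schwann cell list), Map2 had 2113 and 1847 and Tubb3 836 and 523 (neuron list), and Cebpa had 1022 and 830 (adipocyte list). Summed levels in the PTH and untreated libraries were 149.8 and 133 CPM for Schwann cell markers, 43.7 and 36.5 CPM for neuron markers, 15.6 and 13.04 CPM for adipocyte markers, 0.159 and 0.164 CPM for T cell markers, 1.34 and 1.06 CPM for endothelial markers, 0.940 and 2.87 CPM for muscle markers, and 99.0 and 87.2 CPM for macrophage and osteoclast markers, the last mostly from Ctsk. Of 2 compared muscle markers Acta1 was called lower, from 28 counts in the PTH library and 124 in the untreated library. Of 4 compared macrophage and osteoclast markers Cd14 was called higher, against 5.39% of all compared rows. The part of these markers in the EGR values was not tested.

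Variation between cultures is unknown with 1 library a condition, so the intervals were also widened for assumed amounts of it. With a coefficient of variation (CV) of 0.1, 4 of 4 EGR genes stayed below the limit, against a background of 2.46%. With a CV of 0.2, 3 of 4 did, against a background of 1.63%. The gene that did not was Egr1, whose widened interval ran from 0.277 to 0.840. At a limit of 2-fold on the counting intervals 4 of 4 EGR genes stayed called, against a background of 1.6%. At a looser limit, a log2 ratio of 0.32, Nab2 was called higher, so 1 of 2 NAB genes was, against a background of 9.11%. Nab2's interval with a CV of 0.2, from 0.829 to 2.51, included 1, as did that of Nab1, from 0.661 to 2.01.

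**Figure D5:**
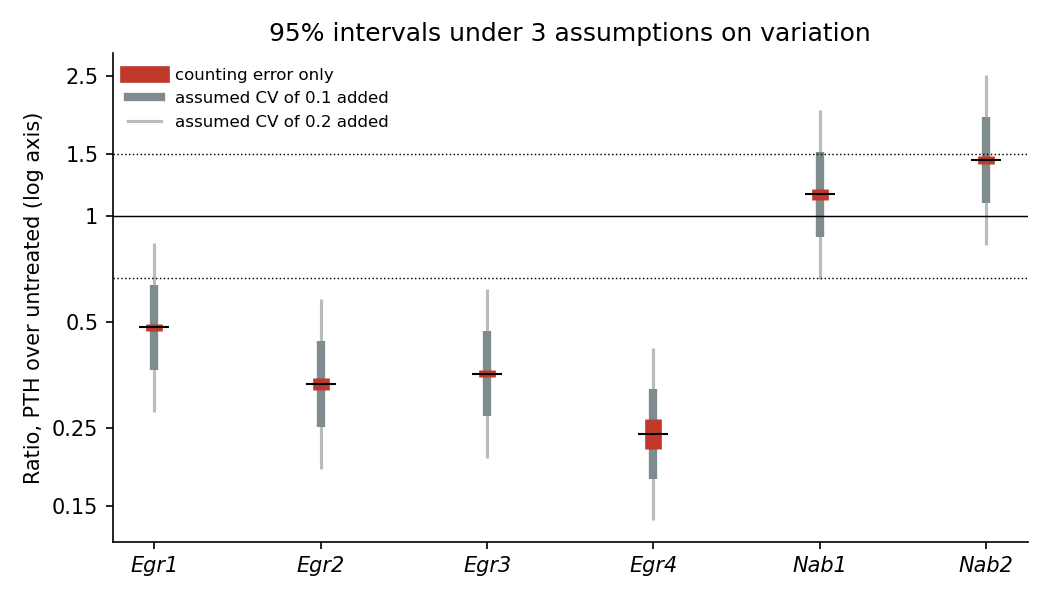
Ratio, PTH over untreated (log axis), of each member with its 95% interval for counting error only (red), with an assumed CV of 0.1 added (grey) and with an assumed CV of 0.2 added (thin light grey); dotted lines mark 1.5-fold in each direction. With a CV of 0.2 the intervals of Egr2, Egr3 and Egr4 end below the lower line, at 0.581, 0.621 and 0.422, and that of Egr1 crosses it.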

How the data were processed

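The authors deposited unnormalised whole-number counts of both libraries in 1 table. Per the submitters' processing notes, HISAT2 and the mm10 build were used; no source used here gives the counting tool, the annotation or any use of strand. Rows with a total count of at least 20 were compared. Counts were scaled by TMM effective library sizes (edgeR 4.0.16, R 4.3.3). Without replicates a quasi-likelihood model has no residual degrees of freedom and could not be fitted, so each ratio carries a 95% Clopper-Pearson interval (Python, scipy 1.17.1). That interval was tried on simulated counts with counting error only, so the trial does not cover variation between cultures. Ratios between 2 genes carry a log-scale normal interval. Log2 ratios add 0.5 count. Coordinates, exonic lengths and overlaps came from GENCODE M21 (GRCm38), with 55227 of 55487 identifiers matched. Alternatives were 3 scalings (DESeq2 1.42.0 size factors among them), 2 filters, 2 fold limits and 2 widened intervals. The members and lists were chosen with earlier results of these data known. Named were all members, up to 3 called genes per list with the farthest interval bound, the gene with most reads, and 2 nearest genes per EGR gene; other genes were named after their values were seen. For the ERK cascade list the gene with most reads is not reported here.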

Additional observations from a re-analysis of the deposited data

How the results depend on the processing

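Over the scalings and filters run, ratios ranged from 0.470 to 0.483 for Egr1, 0.325 to 0.334 for Egr2, 0.347 to 0.357 for Egr3, 0.234 to 0.241 for Egr4, 1.12 to 1.15 for Nab1 and 1.41 to 1.45 for Nab2, and no member's call changed. With a fold limit of 2, 4 of 4 EGR genes stayed called (background 1.6%). With the looser fold limit (a log2 ratio of 0.32) Nab2 at 1.44 was called higher, so 1 of 2 NAB genes was (background 9.11%). With a CV of 0.2 Egr1, at 0.482, was not called. Of 82 compared pathway genes, 12 were called higher and 9 lower, against 5.39% and 3.54% of all compared rows. With a CV of 0.1, 5 were lower, against 2.46%, and with a fold limit of 2, 5 were lower, against 1.6%. With a CV of 0.2, 4 were higher and 3 lower, against 474 and 267 of the 16408 rows. Per kb of exon, the shares of EGR RNA in the PTH and untreated libraries were 38.6% and 30.6% for Egr1, 19.2% and 22.1% for Egr2, 38.1% and 40.8% for Egr3, and 4.09% and 6.51% for Egr4. With the longest transcript as length, the PTH and untreated levels in CPM per kb were 18.8 and 56.3 for Egr2, 36.2 and 101.6 for Egr3, 24.99 and 21.7 for Nab1, and 92.1 and 63.8 for Nab2, which puts Egr3 above Egr1 in the PTH library. Over all 16408 compared rows, 884 were called higher and 581 lower. These counts were 1386 and 983 of 23527 rows with no filter, and 543 and 307 of 13079 rows with a total of at least 100. Of the 16408 rows they were 474 and 267 with a CV of 0.2, 1495 and 1213 with the looser fold limit, and 517 and 262 with a fold limit of 2. No paired analysis was possible because each condition has 1 library.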
